A study of Mus musculus with 4 samples.

Results

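The comparison described here set 2 of the 4 libraries of the study against each other: the library labelled Mll3/4 deleted and the library labelled Mll4 deleted. Both libraries carried the Mll4 label, so the difference between them is the added Mll3 label. The other 2 libraries, labelled control and Mll3 deleted, were used for the same Mll3 step without the Mll4 label. All 4 were made from mouse bone marrow taken 10 weeks after transplantation and sorted on CD45.2 for the Lin-Sca1+Kit+ (LSK) fraction, with 1 library per genotype. The labels gave neither the number of mice behind a library, nor the Cre driver, nor the deleted exons. With 1 library a side there were no replicates and hence no tests, and every interval covers counting error only.

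Mll3 and Mll4 are the proteins of Kmt2c and Kmt2d. They are related histone methyltransferases that place single methyl groups on a histone lysine at enhancers, and each works in a complex with shared core subunits and with the demethylase Kdm6a. The LSK gate is known to hold blood stem cells (HSC) and multipotent progenitors (MPP), in which lymphoid and myeloid genes are present at low levels before a lineage is taken. B-cell development from these cells runs through Ebf1 and Pax5, the surrogate light chain genes Vpreb1 and Igll1, and the Rag recombinase. Myeloid development runs through Spi1 and the Cebp factors to granule enzymes such as Mpo.

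A barcode was kept when it held at least 1000 genes and at most 10% of its unique molecular identifiers (UMIs) in mitochondrial genes. The Mll3/4-labelled library kept 4748 of 5136 barcodes with 50792614 UMIs, and the Mll4-labelled library kept 4793 of 7702 with 120700343. Median UMIs per kept barcode were 8920 and 21400, and the control and Mll3-labelled libraries had 14454 and 15381. The Mll4-labelled library stood apart in that 34.2% of its barcodes held fewer than 1000 genes, against 2.97% to 5.45% in the others. Both libraries shared 8 barcode sequences, within the 7 to 14 shared by any 2 of the 4.

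The targeted genes gave only a part check of the labels. Without the Mll4 label, Kmt2c stood at 68.9 CPM (the UMI count of a gene scaled to a common library total) in the control and 35.3 in the Mll3-labelled library. With the Mll4 label it stood at 61.3 with that label alone and 42.3 with both labels, so it was lower in each library with an Mll3 label than in its partner. Kmt2d stood at 24.6, 21.6, 22.6 and 25.4 CPM in the same order and was not clearly lower with an Mll4 label. A 3-prime count can include message of a deleted allele, so Kmt2d does not check the label, and libraries are named by their labels here.

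The sums of UMIs differed widely between both libraries. Of 6761 genes at 20 CPM or more in 1 of both libraries, 716 (10.6%) were at least 2-fold higher with both labels and 871 (12.9%) at least 2-fold lower. At 4-fold the counts were 358 and 417, and at 16-fold 152 and 254. The median log2 ratio over all 6761 genes was 0.01 and its SD across genes 1.98. The highest ratio was that of Brinp3, and mast cell and neutrophil granule genes were among the 12 lowest.

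**Figure D1:**
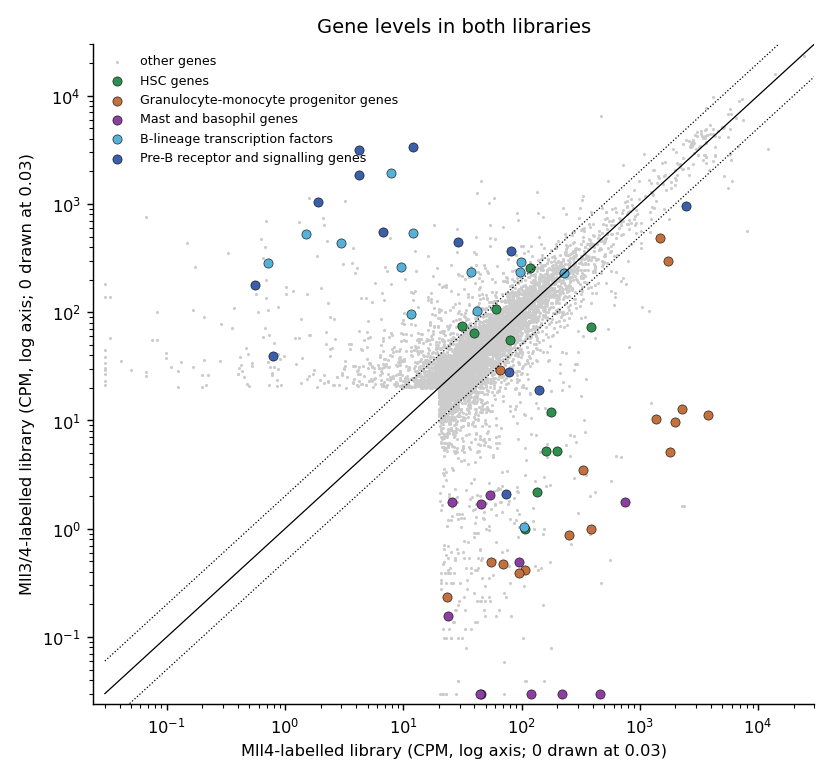
Each point is a gene at 20 CPM or more in 1 of both libraries, with its level in the Mll4-labelled library on the x axis and in the Mll3/4-labelled library on the y axis (both log axes, 0 drawn at 0.03). The solid line marks equal levels, the dotted lines 2-fold, and 5 gene lists are coloured: the pre-B receptor and B-lineage factor genes lie mostly above the lines, and the progenitor, mast cell and most HSC genes below them.

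Among the 12 genes with the highest ratios, 3 encode parts of the early B-cell machinery. Vpreb1, one chain of the surrogate light chain, stood at 7.74 CPM in the control and 72.9 with the Mll3 label, and at 4.23 with the Mll4 label and 3140.4 with both. Igll1, the other chain, stood at 2.72, 31.2, 1.91 and 1045 in the same order. Rag1, a subunit of the recombinase that joins antigen receptor segments, stood at 0.75, 6.28, 0.68 and 399. All 3 were highest in the Mll3/4-labelled library, with the Mll3-labelled library next and the control and Mll4-labelled libraries together at the bottom. Their log2 ratios over the Mll4-labelled library were 9.53 (95% counting interval 9.41 to 9.66) for Vpreb1, 9.09 (8.91 to 9.29) for Igll1 and 9.19 (8.89 to 9.53) for Rag1.

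Vpreb1 and Igll1 are neighbours on chromosome 16, 4418 bases apart with 0 annotated genes between them, and are given with Rag1 because their levels differed together. S100a8, among the 12 lowest ratios, is shown for contrast. The lines hold the 250 bases before each RefSeq gene start, on GRCm38.p6 and in the direction of the gene. Vpreb1 lies at chr16:16869256-16869505 on the minus strand, Igll1 at chr16:16863986-16864235 on the minus strand, Rag1 at chr2:101649533-101649782 on the minus strand, and S100a8 at chr3:90668821-90669070 on the plus strand. Capitals mark exact matches, on either strand, to an E-box of the kind bound by E2A (CAGGTG), a Runx-type motif (TGTGGTT) and a PU.1-type motif (GAGGAAGT), and no 2 of the marked matches overlap.
Vpreb1: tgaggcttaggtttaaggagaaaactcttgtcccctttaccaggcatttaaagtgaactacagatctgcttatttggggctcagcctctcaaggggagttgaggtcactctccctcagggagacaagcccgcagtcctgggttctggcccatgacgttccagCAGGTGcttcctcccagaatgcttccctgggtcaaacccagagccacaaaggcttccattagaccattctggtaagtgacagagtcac
Igll1: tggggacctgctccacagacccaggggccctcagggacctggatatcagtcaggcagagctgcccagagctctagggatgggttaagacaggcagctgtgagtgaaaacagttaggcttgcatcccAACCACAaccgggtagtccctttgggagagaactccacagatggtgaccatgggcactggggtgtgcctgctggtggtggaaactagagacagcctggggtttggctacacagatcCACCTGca
Rag1: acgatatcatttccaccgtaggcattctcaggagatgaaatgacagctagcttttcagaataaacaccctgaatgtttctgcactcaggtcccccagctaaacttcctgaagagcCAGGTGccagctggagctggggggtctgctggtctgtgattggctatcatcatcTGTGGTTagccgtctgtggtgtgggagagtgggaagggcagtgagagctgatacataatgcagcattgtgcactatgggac
S100a8: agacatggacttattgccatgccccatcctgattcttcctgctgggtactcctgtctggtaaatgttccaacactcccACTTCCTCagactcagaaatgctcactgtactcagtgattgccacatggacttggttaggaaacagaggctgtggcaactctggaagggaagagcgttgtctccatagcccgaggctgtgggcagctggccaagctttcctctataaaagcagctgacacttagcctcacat

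These matches are a description of letters and not binding sites. The E-box letters were no more frequent than elsewhere: with the window taken from 250 bases before to 50 bases after the start, 12 of 82 matched promoters of the 100 highest-ratio genes held them (14.6%), 12 of 71 of the 100 lowest-ratio genes (16.9%), and 20.03% of 27025 RefSeq promoters. The PU.1-type letters were in 1 of the 82 (1.22%) and 9 of the 71 (12.7%), against 3.28% of all promoters. Those 9 were the promoters of S100a8, Fcgr4, Mpo, Atp8b4, Elane, Prtn3, Ly6c2, Cd53 and C1qc. An EBF1-type palindrome was in 4 of the 82 (4.88%), those of Ptpn14, Foxo1, Sdc4 and Sgk1, in 0 of the 71, and in 0.914% of all promoters. The Runx-type letters were in 9.76% and 9.86% of both sets, against 5.37% of all. C/EBP-type letters (TTGCGCAA) were in 1 promoter of each set, against 0.185% of all. GATA-type letters (AGATAAG) were in 2.44% and 2.82%, against 3.07%. Among 5416 matched promoters of all entering genes the E-box share was 15.1%, PU.1-type 3.31%, EBF1-type 0.757% and Runx-type 3.55%. C/EBP-type and GATA-type shares there were 0.351% and 1.55%.

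The gene with the highest ratio was Brinp3, a gene better known from neurons. It had 0 UMIs in the control and Mll3-labelled libraries, 4 in the Mll4-labelled library and 7048 in the Mll3/4-labelled library, which made it 3722-fold higher (counting interval 1635 to 15372). Ntn1, a secreted guidance factor, had 4, 11, 10 and 5107 UMIs in the same 4 libraries. Enpep, the surface aminopeptidase known as BP-1 on early B cells, stood at 0.03, 0.34, 0.33 and 351 CPM. Brinp3 and Ntn1 were thus nearly absent from the other 3 libraries, whereas Enpep held 36 and 40 UMIs in the Mll3- and Mll4-labelled libraries.

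The other 6 genes among the 12 highest were Ly6c1, Rnase10, Rnase12, Adgrf1, Fxyd6 and Crip2, with log2 ratios from 9.02 (Crip2) to 9.94 (Ly6c1). Rnase10 and Rnase12, ribonuclease-family genes 45940 bases apart on chromosome 14, stood at 0.63 and 1.599 CPM in the Mll4-labelled library and at 473 and 1140.0 in the Mll3/4-labelled library. Reads of near-identical copies can be split by counting, so the levels of Ly6c1 beside Ly6c2 and of Vpreb1 beside Vpreb2 are less certain. Vpreb2 itself had 58 of 120700343 UMIs with the Mll4 label and 31 of 50792614 with both. The lower raw count is thus no lower level.

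**Figure D2:**
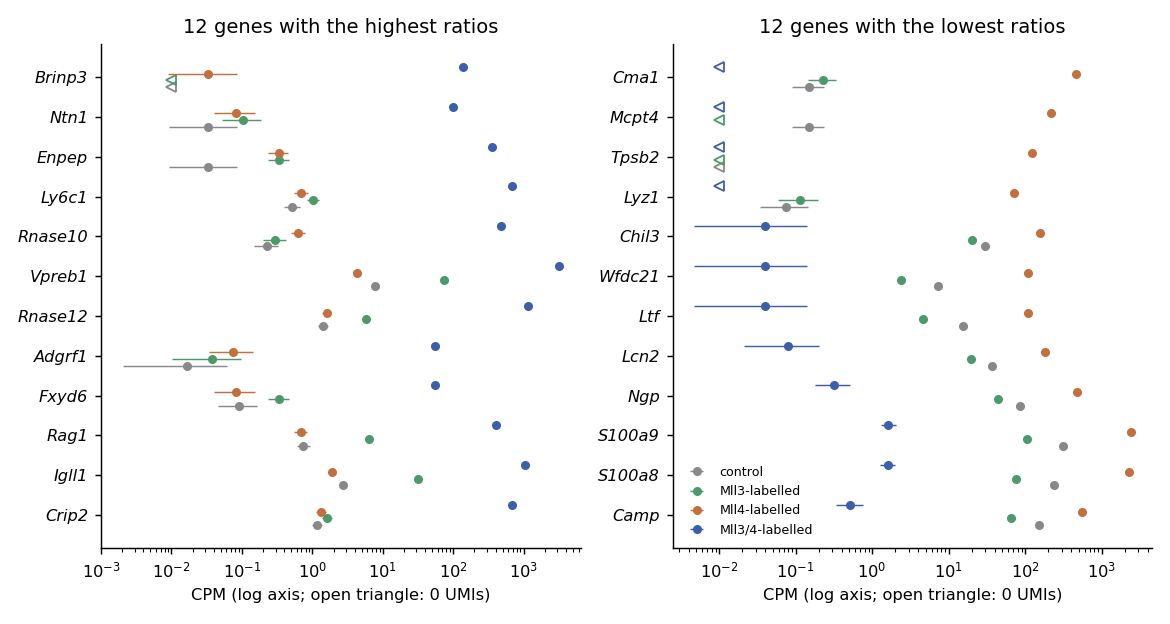
CPM (log axis) of the 12 genes with the highest and the 12 with the lowest ratios in all 4 libraries, with 95% counting intervals as bars and open triangles for 0 UMIs. On the left the Mll3/4-labelled library lies far above the other 3, and on the right the Mll4-labelled library lies above the other 3 while the Mll3/4-labelled library lies at the bottom.

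Transcription factors of the B lineage were higher with both labels. Of 16 genes, 13 entered, 11 were at least 2-fold higher and 1 lower, beside 10.6% and 12.9% over all genes, and the median log2 ratio was 3.03. The same shares over all genes stand beside each list count over all cells below. Pax5, which commits cells to the B lineage, stood at 0.61, 6.52, 0.71 and 285 CPM in the control, Mll3-, Mll4- and Mll3/4-labelled libraries. Ebf1, which acts before it, stood at 4.41, 35.4, 7.80 and 1911, and Id3, an inhibitor of E proteins, at 1.45, 9.49, 1.4996 and 532. Each of these 3 factors was highest with both labels and next highest with the Mll3 label alone.

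Lef1 (436 against 2.97 CPM), Foxo1 (541 against 12.1) and Pou2af1 (259 against 9.59) were also above 20-fold higher. The general lymphoid factors differed less: Ikzf1 stood at 236 against 97.2, Tcf3 at 102 against 42.0 and Bcl11a at 289 against 99.4, log2 ratios of 1.28, 1.29 and 1.54. Mef2c did not differ by 2-fold (231 against 227). Pou2f2, the OCT2 factor of later B cells, was the member that was lower, at 1.04 against 105, a log2 ratio of -6.63. Ikzf3, used later in the B lineage, did not reach 20 CPM in either library and had 4 UMIs with both labels and 586 with the Mll4 label alone.

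Genes of the pre-B receptor and its signalling went both ways. Of 16, 13 entered, 9 were higher and 4 lower, with a median log2 ratio of 5.62. The receptor parts were higher: Vpreb3 at 1859 against 4.26 CPM, Cd79a at 3340 against 12.1, and Cd79b at 448 against 28.9. The adaptor Blnk, which links the receptor to its kinases, stood at 552 against 6.77. Cd24a and Cecr2 were also higher, at 366 against 81.8 and 39.0 against 0.79.

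The 3 kinases of the list that entered were lower. Btk stood at 2.09 against 74.0 CPM (log2 ratio -5.14), Lyn at 19.2 against 140 (-2.87) and Syk at 27.8 against 78.9 (-1.51). Zap70, a kinase of the Syk family outside the list and named after its values were seen, went the other way, at 198 against 0.70 CPM (log2 ratio 8.14). A Zap70 UMI was in 45.9% of thinned barcodes with both labels and 0.622% with the Mll4 label (79.8% and 1.48% without thinning). Ighm, the immunoglobulin mu chain, was the other member that was lower, at 956 against 2450.0. The lower count was 2 in place of 4 when barcodes marked by another cell type were left out, with either way of marking. Myeloid and mast cells also use Btk, Lyn and Syk, and marks of those cells were common in the Mll4-labelled library (given below). In the control, mast and macrophage marks were on 0.124% and 0.262% of thinned barcodes. A Btk UMI was in 13.1% of thinned barcodes in the control, 20.1% with the Mll4 label and 0.594% with both labels. For Lyn the shares were 9.53%, 37.1% and 6.51%. With both labels the Btk share was thus far below that of the control as well, and the Lyn share only slightly. No such share was taken for Syk. The control differs in cell make-up too, so these shares do not bear on the cause of the ratios. The part of myeloid and mast cells in these ratios was not tested beyond the count without marked barcodes.

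Of 12 recombination and repair genes, 10 entered, 6 were higher and 0 lower, with a median log2 ratio of 1.16. The developmentally limited members differed most: Rag1 as above, Rag2 at 147 against 1.03 CPM, and Dntt, which adds untemplated bases at joins, at 1254 against 42.3. Lig4, the ligase of end joining, stood at 23.3 against 2.32, while its partner Xrcc4 stood at 25.9 against 15.9. The Ku genes Xrcc5 and Xrcc6 had log2 ratios of 1.16 and 1.17, and Prkdc 0.12, while that of Lig4 was 3.33.

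Lymphoid priming genes divided. Of 16, 13 entered, 6 were higher and 5 lower, and the median log2 ratio was 0.50, which turned to between -0.10 and -0.0023 under 3 alternatives. Il7r, the interleukin 7 receptor chain that B progenitors depend on, stood at 5.16, 14.4, 52.8 and 1020 CPM in the control, Mll3-, Mll4- and Mll3/4-labelled libraries. Ly6d (498 against 41.1) and Cnn3 (85.8 against 6.47) were also higher with both labels. The genes that were lower included Lsp1 at 1.20 against 90.6 and Cd27 at 4.65 against 57.7. Flt3, the receptor that marks lymphoid-primed progenitors, stood at 23.5 against 32.0 and was thus below 2-fold.

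Receptors for blood cytokines divided. Of 20, 18 entered, 2 were higher, 9 lower and 7 within 2-fold, with a median log2 ratio of -1.004. Besides Il7r, the other receptor that was higher was Prlr, the prolactin receptor, at 0.24, 0.41, 2.25 and 455 CPM in the 4 libraries. The myeloid receptors Il6ra, Csf1r, Csf2rb and Csf3r were lower by log2 ratios from -8.09 to -6.57. Kit stood at 246 against 362 and Crlf2 at 75.2 against 73.4. Without the barcodes marked by another cell type 5 receptors were lower in place of 9, and at a minimum of 100 CPM the median of the few left was 1.86.

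**Figure D3:**
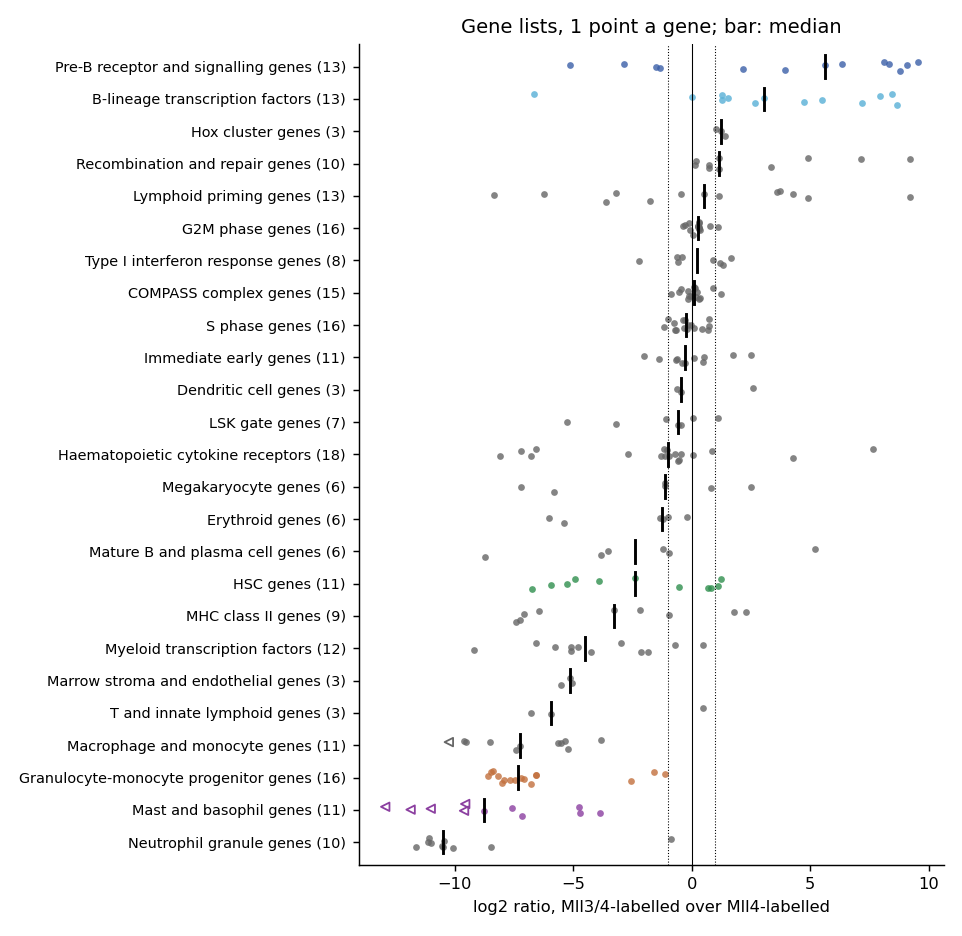
Each point is a gene of a list and its log2 ratio of the Mll3/4-labelled over the Mll4-labelled library; the number of entering genes is in brackets, bars mark medians and dotted lines 2-fold. Open triangles are genes with 0 UMIs with both labels, drawn at the bound for 3 UMIs. B-lineage lists have medians of 3.03 and 5.62, cell cycle and COMPASS lists lie near 0, and the neutrophil, mast, progenitor and macrophage lists have medians below -7.

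Genes of HSC identity were mostly lower with both labels. Of 18, 11 entered, 6 were lower and 2 higher, with a median log2 ratio of -2.40. Hlf, a factor largely limited to stem cells in marrow, stood at 291, 271, 136 and 2.21 CPM in the control, Mll3-, Mll4- and Mll3/4-labelled libraries. Mecom, another stem cell factor, stood at 87.5, 102, 107 and 1.004, and Cd34 at 332, 261, 199 and 5.18. The Mll3/4-labelled library was the lowest of the 4 for each of them. Ifitm1, Angpt1 and Ifitm3 were lower by log2 ratios of -4.94, -3.91 and -2.40.

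The 2 members that were higher were Ly6a, which encodes the Sca1 antigen of the sort, at 255 against 119, and Hoxa9 at 74.0 against 31.4. Meis1 and Mllt3 stayed within 2-fold, with log2 ratios of -0.52 and 0.69. Of the 7 that did not enter, Procr had 7 UMIs with both labels and 1299 with the Mll4 label alone, and Tek had 0 and 269. So the library carried the sorted antigens Ly6a and Kit but little of Hlf, Mecom, Cd34 or Procr. By its leading genes the library was pro-B-like, which goes against the stem and progenitor identity that the sort is usually taken to give. Fewer cells of a type and less message per cell cannot be told apart in these sums.

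Of 17 Hox cluster genes, 3 entered and all 3 were higher: Hoxa7 (56.1 against 21.2 CPM), Hoxa9 and Hoxa10 (20.2 against 10.1). The level of Hoxa9 with both labels was close to the 78.5 of the control, and that of Hoxa7 to its 50.1. The Hoxb genes of the list were all under 20 CPM in both libraries. The direction was not the same in each surface gate (defined below). In the HSC gate 7 Hox genes entered, 0 were higher and 4 lower, with a median log2 ratio of -1.02. In MPP1 4 entered, 0 were higher and 2 lower (median -1.05). In MPP3 2 of 2 were higher, and in MPP4 1 of 3, with 0 lower in both. Over all genes 11.7% were lower in the HSC gate and 12.5% in MPP1, and 11.1% were higher in MPP3 and 12% in MPP4. With so few Hox genes entering, these counts are a description only.

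Myeloid transcription factors were lower with both labels. Of 14, 12 entered, 10 were lower and 0 higher, beside 12.9% lower over all genes, with a median log2 ratio of -4.52. Cebpa, needed to form granulocyte-monocyte progenitors, stood at 14.7, 14.3, 40.2 and 0.41 CPM in the 4 libraries. Spi1, the gene of PU.1, stood at 123, 123, 166 and 6.04, and Irf8, a monocyte and dendritic cell factor, at 23.3, 33.4, 106 and 5.55. Each was highest with the Mll4 label alone and lowest with both labels. Cebpe, the factor of late granule genes, had 2 UMIs against 3488, a 587-fold lower level (counting interval 203 to 6062). Runx1 and Egr1 stayed within 2-fold.

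All 16 granulocyte-monocyte progenitor genes entered and all 16 were lower, with a median log2 ratio of -7.33. Mpo, the myeloperoxidase of granules, stood at 174, 196, 3781 and 11.3 CPM in the control, Mll3-, Mll4- and Mll3/4-labelled libraries. Elane, neutrophil elastase, stood at 124, 171, 1997 and 9.73, and Ctsg, cathepsin G, at 156, 177, 1806 and 5.08. With both labels they were thus below the control as well as below the Mll4-labelled library, which was the highest of the 4. The smallest differences were those of Csf2ra, Calr and Plac8, with log2 ratios of -1.15, -1.59 and -2.55.

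Of 16 neutrophil granule genes 10 entered and 9 were lower, with a median log2 ratio of -10.51. S100a8 stood at 235, 76.7, 2292 and 1.61 CPM in the 4 libraries, and S100a9, its binding partner, at 312, 107, 2382 and 1.63. Camp, a cathelicidin, stood at 151, 64.6, 559 and 0.51. All 3 were in the same order: Mll4-labelled, control, Mll3-labelled, Mll3/4-labelled. Chil3, Wfdc21 and Ltf had 2 UMIs each with both labels. Chil3 was 3129.9-fold lower (counting interval 1083 to 32308), Wfdc21 2214-fold (766 to 22849) and Ltf 2192-fold (758 to 22627). Lcn2 had 4 UMIs against 21623. Anxa1 was the member within 2-fold, at 90.6 against 165.

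Mast and basophil genes were lower with both labels, and several had no UMI there. Of 14, 11 entered and 11 were lower, with a median log2 ratio of -8.75 whether genes at 0 UMIs were set at their fitted value or at their bound. Cma1, mast cell chymase, had 55362 UMIs in the Mll4-labelled library and 0 with both labels, and was at least 7766-fold lower, taking 3 UMIs as the most that 0 allows. Mcpt4 and Tpsb2, further mast cell proteases, had 26375 and 14645 UMIs against 0 and were at least 3699.7-fold and at least 2054-fold lower. Mcpt8 and Fcer1a, also at 0, were at least 776-fold and at least 750.03-fold lower. The control held 18, 18 and 0 UMIs of Cma1, Mcpt4 and Tpsb2, so these genes were abundant in the Mll4-labelled library alone.

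Macrophage and monocyte genes showed the same side. Of 14, 11 entered and 11 were lower, with a median log2 ratio of -7.26. Lyz1 had 8627 UMIs in the Mll4-labelled library and 0 with both labels, and was at least 1210.1-fold lower. Fcgr4, an antibody receptor of monocytes, had 18351 against 10, and Adgre1, the F4/80 antigen, 2798 against 1, a 785-fold lower level (counting interval 211 to 46523). Ctss differed least, at 24.4 against 348 CPM.

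These lists mark mature cells that the gate should leave out. Barcodes were therefore thinned to 3000 UMIs and marked when they held at least 4 genes of a list. Mast and basophil marks were on 14.4% of barcodes in the Mll4-labelled library and on 0 of 4715 in the Mll3/4-labelled library, which allows up to 0.0636%. Macrophage and monocyte marks were on 19.0% and 0.0424%, T and innate lymphoid marks on 4.89% and 0, and mature B and plasma cell marks on 3.33% and 0.106%. In the control these 4 marks were on 0.124% to 0.551%. Marks of any of these mature types or stroma were on 39.2% of barcodes with the Mll4 label and 0.148% with both labels (71.4% and 0.716% without thinning). Such transcripts were also in other barcodes of the Mll4-labelled library. HSC-marked barcodes there held Cma1 in 16.5% and Igkc in 50.9%, so a mark cannot be read as a count of such cells.

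Leaving out the barcodes marked after thinning changed some counts and not others. Mast genes that entered and were lower numbered 4 in place of 11, with a median of -5.37, and macrophage genes 4 in place of 11, with a median of -5.27. With barcodes marked on all their UMIs left out, 2 of each list entered and were lower. The marks were set by genes of these same lists, so these smaller counts follow from the marking and are no result. The named genes kept their direction and stayed at least 2-fold apart in each of 14 alternatives, this one included. They were chosen as the most extreme ratios of these data, so this is no support. The summed level of the 14 mast genes was 93.9, 43.0, 1912 and 8.01 CPM in the control, Mll3-, Mll4- and Mll3/4-labelled libraries, with 7 of the 14 at 0 with both labels. For the macrophage list it was 47.4, 60.7, 1205 and 33.3. The part of these cells in the other ratios was not tested beyond this.

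Other mature lineages gave smaller lists. Of 12 mature B and plasma cell genes 6 entered, 4 were lower and 1 higher, and 2 were lower without the barcodes marked by another type. Those marks used this list too, so the smaller count follows from the marking. Igkc stood at 8016 CPM with the Mll4 label and 562 with both, and Mzb1, a chaperone of immunoglobulin secretion that is also used earlier in the lineage, at 45.2 and 1644. Of 28543 Igkc UMIs with both labels, 27994 lay in cells of 1 surface gate (MPP4, defined below). Of 16 T and innate lymphoid genes 3 entered and 2 were lower, Nkg7 and Rora. All 3 stroma and endothelial genes that entered (Cxcl12, Fabp4 and Vcam1) were lower.

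Genes of antigen presentation on MHC class II were mostly lower: of 10, 9 entered, 6 were lower and 2 higher. H2-Aa stood at 80.8, 152, 696 and 4.61 CPM in the 4 libraries, Cd74, the invariant chain, at 165, 323, 1237 and 14.5, and Ciita, the regulator of both, at 4.58, 7.10, 21.7 and 0.12. H2-Oa and H2-Ob, which modulate peptide loading in B cells, were the 2 that were higher, at 39.9 against 11.7 and 46.2 against 9.41. Of the 12 dendritic cell genes 3 entered. Tcf4, an E protein used by both plasmacytoid dendritic and B cells, was higher (822 against 138), while Siglech, Xcr1 and Clec9a stood at 0 to 1 UMIs with both labels.

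Erythroid and megakaryocyte genes were few at this level. Of 16 erythroid genes 6 entered and 4 were lower (2 with equal weight per barcode), among them the early factors Gata2 (1.24 against 80.5 CPM) and Tal1 (0.77 against 32.4). Of 14 megakaryocyte genes 6 entered, 4 were lower (2 without the barcodes marked by another type) and 1 higher. Pf4 stood at 0.26 against 39.5 and Itga2b at 0.39 against 22.5, and Cavin2 was the one that was higher, at 31.3 against 5.49. The control held Gata2 at 85.6 and Tal1 at 48.1, so with both labels these genes were also below the control.

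Several lists differed little. Of 16 genes of the COMPASS complexes that hold Mll3 and Mll4, 15 entered and 1 was 2-fold apart: Men1, a partner of other Mll proteins, at 42.7 against 18.0 CPM. The median log2 ratio of the list was 0.10. Kmt2a stood at 210.4 against 114, and Wdr5, a core subunit, at 17.5 against 31.8. Kdm6a stood at 52.9 against 45.6 and did not reach 2-fold.

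Cell cycle genes were close as well over all cells. Of 16 S phase genes 1 was lower (Mcm7, log2 ratio -1.16) and of 16 G2M genes 1 was higher (Cenpf, 1.11), with medians of -0.24 and 0.28. Mki67 stood at 462 against 376 CPM. After thinning, 26.6% of barcodes with both labels and 29.0% with the Mll4 label alone held an Mki67 UMI (39.7% and 48.2% without thinning). In the MPP4 surface gate (defined below), 11 of 16 G2M genes were higher and 0 lower, with a median of 1.07. There 12% of all genes were higher, and Mki67 stood at 487 against 242 CPM. In the HSC, MPP1 and MPP3 gates 2, 2 and 1 of the 16 were higher, beside 10.7%, 10% and 11.1% of all genes there. Of the 15 type I interferon genes in the files, 8 entered, 3 were higher (Ifit1, Isg15 and Ifi203) and 1 lower (Oasl2). Of 14 immediate early genes, which respond to handling as well as to signals, 11 entered, with Btg2 and Jund higher and Fos and Junb lower.

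Counts per cell showed how widely the B-lineage transcripts were spread. After thinning to 3000 UMIs, which left out 33 barcodes with both labels and 134 with the Mll4 label, a Vpreb1 UMI was in 98.3% of 4715 barcodes with both labels and in 0.515% of 4659 with the Mll4 label. Without thinning the shares were 99.2% and 2.003%. Cd79a was in 99.4% and 2.12% (99.6% and 4.01% without thinning) and Ebf1 in 97.7% and 0.730% (99.4% and 2.34%). Rag1 was in 63.6% and 0.0859% (87.1% and 0.480%), and Pax5 in 53.0% and 0.129% (82.9% and 0.480%). These 5 genes were thus in most cells with both labels and in few with the Mll4 label alone. Brinp3 was in 30.7% with both labels and in 0 with the Mll4 label, which allows up to 0.0644% of cells with a UMI at that depth and does not bound cells expressing it (52.7% and 0.0626% without thinning). In the Mll4-labelled library mast-marked barcodes, which should lack Vpreb1, held it in 0.299% (median 5928 UMIs before thinning) and HSC-marked barcodes in 0.344% (median 25013), so its share there was near that background.

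The Mll3/4-labelled library was close to uniform in this respect. At least 4 genes of the pre-B receptor list were on 99.0% of its thinned barcodes, against 5.45% with the Mll4 label, 3.44% with the Mll3 label and 0.730% in the control. The list includes kinases that myeloid cells share, and the mark did not pick like cells in each library. Of the marked barcodes Vpreb1 was in 99.0% with both labels, 82.8% with the Mll3 label, 34.0% in the control and 4.72% with the Mll4 label. In the 254 marked barcodes with the Mll4 label Lyn was in 82.7%, Btk in 58.7% and the monocyte receptor Fcgr4 in 44.9%.

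HSC marks were on 4.24% with both labels, 31.2% with the Mll4 label, 76.9% with the Mll3 label and 79.6% in the control. The 200 barcodes with both labels that carried this mark held Ly6a in 83% and Hoxa9 in 54.5%, but Hlf in 4%, Mecom in 1% and Cd34 in 7%, and 92.5% of them held Vpreb1. They were thus marked without the defining stem cell genes.

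Myeloid transcripts were in few of its cells. After thinning an Mpo UMI was in 0.106% of barcodes with both labels and in 55.3% with the Mll4 label (0.211% and 90.5% without thinning). The second share cannot be read as cells that express Mpo, since mast-marked barcodes of that library held it in 55.0% and HSC-marked barcodes in 36.2% (median depths 5928 and 25013 UMIs). S100a8 was in 0.382% and 29.0% (1.28% and 75.9% without thinning), with 20.7% of the HSC-marked barcodes of the Mll4-labelled library holding it. Of 4715 thinned barcodes with both labels, 98.3% held Vpreb1 and no Mpo, 3 held Mpo and no Vpreb1, 2 held both and 77 neither.

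The remaining Mpo came from a handful of cells. Without thinning, 14 of 4748 barcodes with both labels (0.295%) held no UMI of Vpreb1, Cd79a or Ebf1, and their median depth was 23781 UMIs. They held 525 of the 575 Mpo UMIs of the library (91.3%), 491 of the 494 Elane UMIs (99.4%), 51 of the 112 Hlf UMIs (45.5%) and 25 of the 51 Mecom UMIs (49.0%). Within them Mpo stood at 1455 CPM (1333 to 1585), Hlf at 141 and Cd34 at 272, while in the other barcodes the same genes stood at 0.99, 1.21 and 3.27. Of the 14, 8 fell in the MPP3 gate. They were chosen by the absence of B-lineage UMIs, so their low B-lineage levels are no result.

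Antibody tags were used to place cells in 6 surface gates. Cells low for CD135 were called HSC when CD150 was high and CD48 low, MPP1 when both were low, MPP2 when both were high, and MPP3 when CD48 alone was high. Cells high for CD135 were called MPP4 when CD150 was low and CD150+CD135+ otherwise. Counts were centred per cell on the log scale and 1 threshold per antibody was used for all libraries. MPP3, which is biased to myeloid output, held 69.7% of cells with the Mll4 label and 10.3% with both, against 44.2% in the control. MPP4, biased to lymphoid output, held 13.7% and 48.4%, against 12.1% in the control. The CD150+CD135+ gate, which has no usual name, held 0.459% (22 cells) and 31.7% (1507 cells). HSC held 7.28% and 4.11%, MPP1 5.90% and 3.71%, and MPP2 2.90% and 1.81%.

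Of the 6 gate shares, that of MPP3 alone kept its direction under all 5 alternatives run. With a threshold set in each library the MPP4 difference turned from 34.6 to -28.9 percentage points and the HSC difference from -3.17 to 12.1. Without centring the CD150+CD135+ difference turned from 31.3 to -2.69. The MPP3 difference was -59.4 points and lay between -57.1 and -15.9 under the alternatives. Median antibody counts per barcode were 2398 with the Mll4 label and 853 with both.

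**Figure D4:**
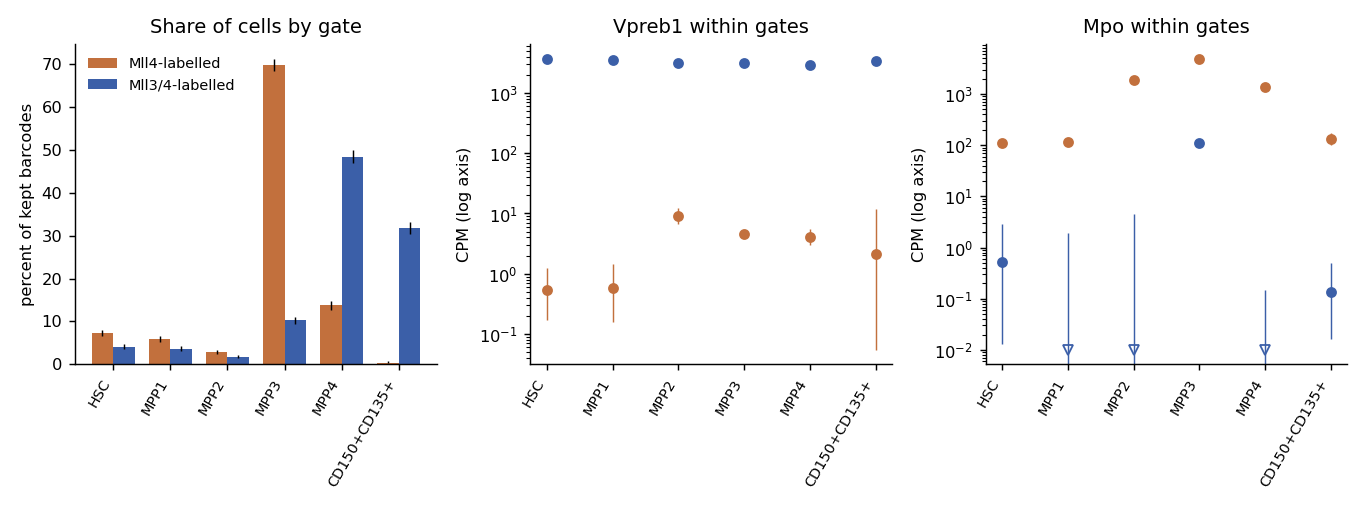
Left, share of kept barcodes in 6 surface gates with 95% binomial intervals; middle and right, Vpreb1 and Mpo in CPM (log axis) summed within each gate, with 95% counting intervals, and open triangles for 0 UMIs. Vpreb1 in the Mll3/4-labelled library lies between 2938 and 3706 in each gate, and Mpo in that library is above 1 in the MPP3 gate alone.

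Some of the transcript differences were present within gates. Ratios were taken in the 4 gates with at least 100 cells in both libraries (HSC, MPP1, MPP3 and MPP4), in which 22.3%, 22.5%, 23.8% and 27.1% of genes were at least 2-fold apart, against 23.5% over all cells. The pre-B receptor list had median log2 ratios of 6.76, 8.41, 5.75 and 4.18 in these gates, and the B-lineage factor list 4.51, 4.82, 3.14 and 2.27. The granulocyte-monocyte progenitor list had medians of -3.34, -4.30, -5.53 and -8.00, and the HSC list -3.22, -3.74, -1.82 and -3.17. The median of each of these lists kept 1 direction in the 4 gates. Some other lists changed direction between gates. The lymphoid priming list had medians of 3.39, 1.08, 0.75 and -1.68. For the Hox cluster list the medians were -1.02, -1.05, 1.75 and 0.84, and for the type I interferon list 0.13, 0.03, 1.0001 and -0.82.

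With both labels, B-lineage levels hardly followed the surface gates. Vpreb1 ranged from 2938 to 3706 CPM over the 6 gates, Cd79a from 3056 to 3641 and Ebf1 from 1810.3 to 2114. In the HSC gate, where the Mll4-labelled library had 5 Vpreb1 UMIs (0.54 CPM), the Mll3/4-labelled library had 7048 (3706 CPM). Hlf in that gate stood at 17.9 with both labels and 408 with the Mll4 label. In the Mll4-labelled library Mpo did follow the gates, from 111 in HSC to 4912 in MPP3.

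The 6 surface proteins and their messages did not always lie on the same side. CD34 and CD48 were lower at both levels: CD34 made up 1.56% of antibody counts with both labels and 5.198% with the Mll4 label (Cd34 log2 ratio -5.26), and CD48 44.5% and 79.2% (Cd48 -3.20). CD117, the Kit protein, made up 45.2% and 10.54%, while Kit had a log2 ratio of -0.56. CD150 made up 3.41% and 2.04% with Slamf1 at -1.69, CD135 2.76% and 1.08% with Flt3 at -0.45, and CD201 2.60% and 1.98% with Procr at -6.19. Shares of 6 antibodies sum to the whole, so a lower CD48 share alone moves the others up. The median count per barcode of CD117 was 498 with both labels and 170 with the Mll4 label, although the total per barcode was lower, and that of CD201 was 29 and 30.

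The same Mll3 step without the Mll4 label gave fewer genes past 2-fold. In the Mll3-labelled library against the control, 53 of 6322 genes (0.838%) were at least 2-fold higher and 29 (0.459%) lower, 1.3% either way, with an SD across genes of 0.36 against 1.98 with the Mll4 label. These pairs share no library, and with 1 library each the difference between them was not tested. Among 5819 genes that entered both comparisons, 349 were higher with the Mll4 label in both libraries and 37 without it, of which 17 were shared (4.87% and 45.9% of either list). Of those lower, 614 and 21, 18 were shared (2.93% and 85.7%). For the higher side, the shares over all genes tested were 0.838% without and 10.6% with the Mll4 label. For the lower side they were 0.459% and 12.9%. The overlap percents lay above these.

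The shared genes included B-lineage genes on the higher side and neutrophil granule genes on the lower. Vpreb1, Igll1, Cd79a, Ebf1 and Vpreb3 had log2 ratios of 3.23, 3.52, 3.36, 3.002 and 2.98 for the Mll3-labelled library over the control, and 9.53, 9.09, 8.11, 7.93 and 8.77 for the Mll3/4- over the Mll4-labelled library. S100a8, S100a9 and Camp had -1.62, -1.55 and -1.23 in the first comparison and -10.46, -10.50 and -10.07 in the second. Hlf, Mpo and Elane were within 2-fold in the first, with -0.10, 0.18 and 0.46, and at -5.94, -8.38 and -7.68 in the second. Thinned barcodes with at least 4 pre-B receptor list genes numbered 53 of 7260 in the control and 209 of 6084 in the Mll3-labelled library. Of these, 34.0% and 82.8% held Vpreb1, 32.1% and 88.5% Cd79a, 58.5% and 19.6% Btk, and 37.7% and 4.31% Hlf, so the mark named unlike cells in each.

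**Figure D5:**
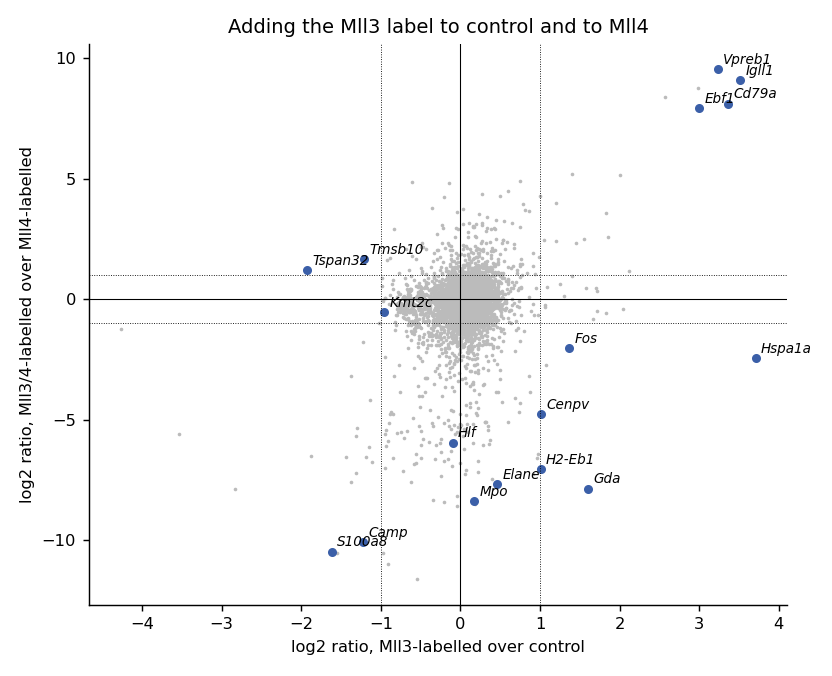
Each point is a gene at 20 CPM or more in both comparisons, with its log2 ratio of the Mll3-labelled library over the control on the x axis and of the Mll3/4-labelled over the Mll4-labelled library on the y axis; genes at 0 UMIs in 1 library of the second comparison are left out and dotted lines mark 2-fold. The spread is wider on the y axis (SD 1.98 over all genes tested) than on the x axis (SD 0.36), and named genes include Vpreb1 and Ebf1 at the upper right and S100a8 at the lower left.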

How the data were processed

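Single-cell RNA was measured with the 10x 3-prime kit (version 3.1) together with 6 antibody tags, per the labels. The deposited matrices hold UMI counts per gene and barcode, which the authors made with Cell Ranger 6.1.1 on mm10, per the submitters' processing notes. How barcodes were first selected is not given in the sources used here. Of 32285 gene identifiers 32158 (99.6%) matched GENCODE M21.

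The barcode filter asked for 1000 genes or more and no more than 10% of UMIs from mitochondrial genes. Counts were then summed per library and scaled to a common total (CPM). Log2 ratios had 0.5 UMIs added to each sum. Intervals are exact Poisson (counts) or Clopper-Pearson (shares) at 95% and cover counting error only. A gene entered at 20 CPM in 1 of both libraries and was called at 2-fold; with 1 library per genotype no test could be run. The calculation was tested on simulated data. A gene at 0 UMIs was set at 3 UMIs for a bound.

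Named genes were the 12 highest and 12 lowest ratios at 50 CPM or more, leaving out mitochondrial, ribosomal protein, haemoglobin, antigen receptor segment, sex-linked and unnamed genes; from the 25 lists, mainly the extreme ratios and defining genes were named. Some list members are not reported here. Shared, opposite and motif-bearing genes, and the 14 cells, were chosen after their values were seen. The comparison and lists were chosen with earlier results of these data known.

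Antibody counts plus 1 were centred on the log scale per barcode and split by a mixture of 2 components. No doublets were removed. Scrublet in scanpy 1.11.5 called 10 barcodes (0.211%) with both labels, too few to have worked, and 184 (3.84%) with the Mll4 label, and an alternative removed the 180 and 184 highest scores. Software was Python 3.11.15, numpy 2.4.6, scipy 1.17.1, pandas 2.3.3, scikit-learn 1.9.0, matplotlib 3.10.9 and, for TMM factors only, R 4.3.3 with edgeR 4.0.16.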

Additional observations from a re-analysis of the deposited data

Results flagged for a closer look

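For 9 of 5819 genes the Mll3 step went past 2-fold in opposite directions with and without the Mll4 label. The 8 that are not antibody gene segments are given. Among the 5819 genes, 349 were higher and 614 lower with the Mll4 label, and 37 and 21 without it. Of these, 17 were higher in both and 18 lower in both. With 1 library per genotype the difference was not tested. Levels follow in the order control, Mll3-, Mll4- and Mll3/4-labelled library, in CPM, and then the log2 ratios of the Mll3/4- over the Mll4-labelled and of the Mll3-labelled library over the control.

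Tmsb10, an actin-binding peptide, stood at 592, 256, 720.4 and 2292, with ratios of 1.67 and -1.21. Tspan32, a tetraspanin of blood cells, stood at 166, 43.7, 15.8 and 36.5, with ratios of 1.21 and -1.93. Both were higher with the Mll3 label where the Mll4 label was present and lower where it was not.

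The other 6 genes went the other way. Fos, an immediate early factor, stood at 39.3, 101, 56.6 and 13.96, with ratios of -2.02 and 1.36. Hspa1a, a heat shock protein with the near-identical copy Hspa1b, stood at 1.65, 21.6, 41.5 and 7.66, with ratios of -2.44 and 3.71. Both respond to handling of cells, which was not tested here. Ifi30, a lysosomal reductase, stood at 15.4, 32.5, 44.7 and 6.71, with ratios of -2.73 and 1.08. Cenpv stood at 68.5, 138, 67.8 and 2.50, with ratios of -4.75 and 1.01. H2-Eb1, an MHC class II chain, stood at 60.03, 121, 626 and 4.71, with ratios of -7.05 and 1.01. Gda, guanine deaminase, stood at 10.3, 31.3, 102 and 0.43, with ratios of -7.85 and 1.601.

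Barcodes with fewer than 1000 genes made up 34.2% of the Mll4-labelled library (2634 barcodes). The share was 2.97% in the control, 3.41% in the Mll3-labelled and 5.45% in the Mll3/4-labelled library. They entered only the alternative with a looser barcode filter, which asked for 500 genes and at most 20% mitochondrial UMIs. Those below 500 genes entered no alternative. Those 2634 barcodes had a median of 650 UMIs, a median mitochondrial share of 2.82% and a median of 104 antibody counts. Summed, they held Igkc at 9284, Mpo at 3758, S100a8 at 2320 and Cma1 at 1230 CPM, and Vpreb1 at 2.88. The 280 such barcodes of the Mll3/4-labelled library held Il7r at 2637 and Vpreb1 at 2077 CPM, and Mpo at 3.04.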

How the results depend on the processing

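All 24 named genes kept their direction and at least 2-fold in each of 14 alternatives (336 values). They were chosen as the most extreme ratios of these same data, and a changed minimum level leaves a ratio as it was. Their staying 2-fold apart was thus nearly fixed in advance and is no support. Of 345 list medians, 333 kept their sign. No paired analysis was possible because each genotype has 1 library. The minimum level set the counts. Shares over all genes are given at the main settings only. List counts under the alternatives therefore have no such share beside them and are no result about the lists. At 4-fold, 358 genes were higher and 417 lower. At 5 CPM the counts were 1201 and 1684, with 10 HSC and 7 erythroid genes lower. With no minimum they were 3925 and 5737, with 13 HSC, 15 neutrophil, 8 mature B, 12 megakaryocyte and 12 erythroid genes lower. At 100 they were 249 and 230, with 4 myeloid factors, 4 mast, 3 macrophage, 1 megakaryocyte, 0 erythroid, 2 pre-B, 2 lymphoid priming and 1 cytokine receptor genes lower, a cytokine receptor median of 1.86, and 9 genes higher and 9 lower for the Mll3-labelled library over the control.

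Without barcodes marked by another cell type, 2 mast, 2 macrophage, 2 mature B, 2 megakaryocyte, 2 pre-B and 5 cytokine receptor genes were lower. With the marks taken after thinning, an alternative chosen after seeing the data, the counts were 4, 4, 2, 2, 2 and 5. The marks used the mast, macrophage and mature B lists, so the smaller counts of those lists follow from the marking. With equal weight per barcode 2 erythroid genes were lower and the Kmt2d log2 ratio was -0.075 in place of 0.17. Gate differences, in percentage points, were 12.1 (HSC), 12.8 (MPP1), 0.631 (MPP2), -15.9 (MPP3) and -28.9 (MPP4) with a threshold per library. Without centring they were 6.95 (MPP1), -34.0 (MPP3) and -2.69 (CD150+CD135+). The MPP3 difference was -53.8 with a looser and -57.1 with a stricter barcode filter and -43.0 without marked barcodes, and MPP4 was 38.4 with the stricter filter. The cause was not tested, apart from fewer or more genes entering as the minimum changed.

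With 1 library per genotype, differences between mice, transplants and library preparations cannot be told apart from the labels. Depth was lower with both labels (median 8920 against 21400 UMIs), which limits levels near 3 UMIs per library.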
